A study of Mus musculus with 4 samples.

Results

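Camk2a, Mbp, Tnni2, Tnnt3 and Ttr are genes best known from nerve, skeletal muscle, liver and the choroid plexus, and all 5 carried cytosines listed as methylated in RNA of mouse leukemia cells. They were chosen by their number of listed sites in an earlier look at the same table, so that number is given as a description only. Their members are the positions that carry one of these gene names as a label: 344 of 506952 listed positions, in 5 of 7802 genes with a site. All 344 lay on the plus strand, as did 502191 of the 506952 listed positions, so this was no trait of these genes. All lay inside the RefSeq span of the gene. Of the 344, 0 shared their label with another gene, with no count over all sites to set beside it.

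The positions come from bisulfite sequencing of poly(A) RNA, in which an unmethylated cytosine is read as thymine and a protected one stays a cytosine. An unmethylated cytosine that escapes conversion also stays a cytosine. No conversion rate was used here, so methylation and incomplete conversion cannot be told apart at these sites. The cells are the NRAS/AE9a line of acute myeloid leukemia (AML), grown with the cytokines SCF (50 ng/ml), IL-6 and IL-3 (each 10 ng/ml) under selection by puromycin (2 µg/ml) and G418 (1 mg/ml). The series holds 4 bisulfite-converted libraries, 2 of genotype WT and 2 of genotype Tet2 KO, and both groups carry the NRAS/AE9a background. Tet2 encodes an enzyme that oxidises 5-methylcytosine. The labels do not say whether the replicates were separate cultures or whether the KO line was a clone, so any spread between replicates may be technical. The table gives only values of the KO libraries, with 0 WT columns and 0 columns for a single library, so a level here is not a difference from WT and was not tested as one. The name of the list holds the words uniq, ko and sig, and what uniq stands for is not stated. If it means KO only, positions also called in WT are missing from the list, which was not checked. All listed positions had at least 10 covering reads and a level of at least 0.2. Those with a call in only 1 KO replicate also had at least 10 reads used for the level. The level is the share of the reads used at that position which kept a cytosine.

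Mbp encodes myelin basic protein, which holds the layers of the myelin sheath together. The same gene has a second, upstream start that gives the longer golli forms, which are known from cells of the immune and blood-forming systems as well as from brain; the RefSeq table lists golli-mbp as a synonym. Camk2a encodes the alpha subunit of calcium/calmodulin-dependent protein kinase II, abundant at excitatory synapses. Tnni2 and Tnnt3 encode troponin I and troponin T of fast skeletal muscle, parts of the complex that makes contraction depend on calcium. Ttr encodes transthyretin, a carrier of thyroid hormone and of retinol-binding protein, made mainly in liver and choroid plexus and also in the pancreatic islet.

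Camk2a had 138 sites, Mbp 125, Tnni2 47, Tnnt3 21 and Ttr 13. A typical gene among the 5754 on the plus strand that had any site carried 68 (the median; quartiles 34 and 114). Camk2a and Mbp were therefore above the upper quartile, with 82.8% and 78.9% of these genes having fewer sites, whereas Tnni2, Tnnt3 and Ttr stood below the median, with 34.9%, 15.8% and 10.9% having fewer. The description of genes with many sites holds for Camk2a and Mbp and not for the other three by number. Tnni2 is a short gene, and per kilobase of span it had 18.1 sites. Camk2a had 2.20 sites per kilobase, Ttr 1.28, Tnnt3 1.20 and Mbp 1.13, all under the plus-strand median of 3.01, which Tnni2 exceeded. Spans include introns, so this density is not one along the mature RNA.

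**Figure D1:**
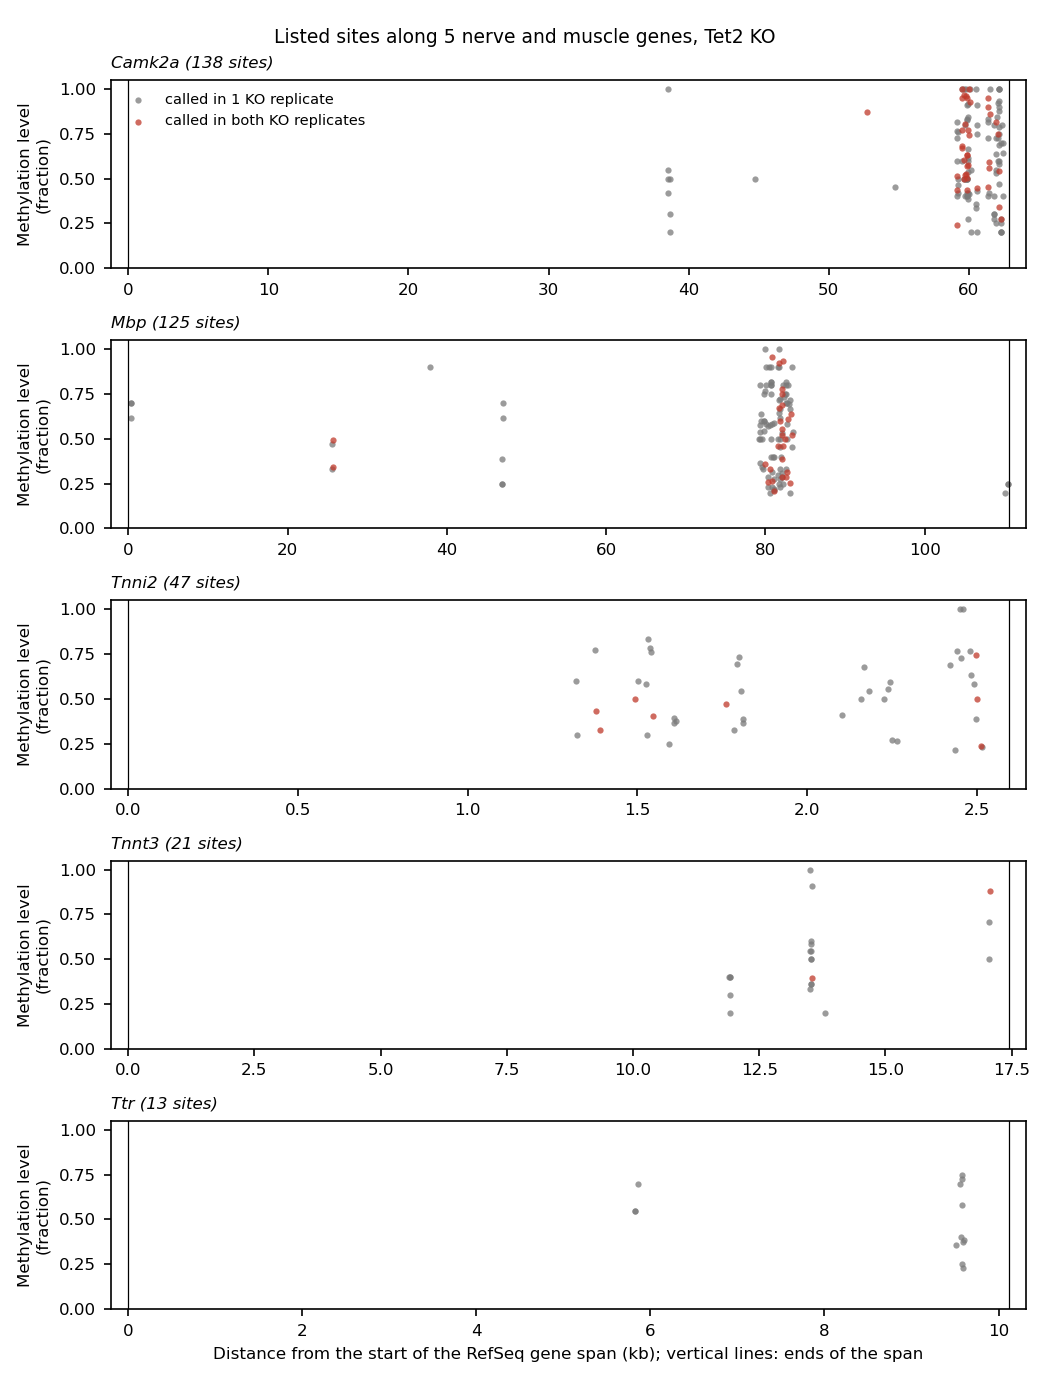
Each point is a listed site, placed by its distance from the start of the RefSeq gene span (kb, horizontal) and its methylation level (fraction, vertical), grey where 1 KO replicate made the call and red where both did. Camk2a sites crowd into the last 10% of the span, Mbp sites into a stretch of 4209 nucleotides that begins 79240 nucleotides in, and Tnni2, Tnnt3 and Ttr have none in the first part of their spans.

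The sites of Mbp (RefSeq gene 17196, chromosome 18, 82475091 to 82585637 in mm10) were concentrated inside the gene and not at its 3' end. A stretch from 82554331 to 82558539, covering 3.81% of the span, held 109 of the 125 sites (87.2%). Another 13 sites lay before it and 3 after it. In the last 10% of the span Mbp had 3 sites (2.40%, exact 95% interval 0.498 to 6.85), against 28.8% of 478456 pairs of a plus-strand site and a gene over the whole table. The dense stretch began 79240 nucleotides after the start of the span and ended 27098 before its end.

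Where the golli and the classic forms of Mbp differ, the data give positions but no exons. The 13 sites before the dense stretch fell into 4 places. The first, 292 to 302 nucleotides after the start of the span, had 3 sites with levels from 0.615 to 0.7 at 21 to 24 covering reads. The second, 25636 to 25687 nucleotides in, had 4 sites with levels from 0.333 to 0.494 at 16 to 49 covering reads, and 2 of these were called in both KO replicates. A lone site followed at 37899 nucleotides, with a level of 0.9 at 11 reads. The fourth place, near 46977 nucleotides, had 5 sites with levels from 0.25 to 0.7. Some sites were thus listed near the start of the RefSeq span, the end of the gene at which golli transcripts begin. The 3 sites there came from 1 replicate each, and the next listed site lay 25636 nucleotides in.

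No exon annotation was used here, so the start of the classic form could not be set against the dense stretch, and whether golli transcripts account for the Mbp sites was not tested. In the RefSeq table, which lists 17 transcripts for Mbp, the span of the long non-coding RNA gene Gm52337 (82554754 to 82572829) overlaps the dense stretch and holds 98 of the Mbp sites. The table gives no strand for it, and 0 sites carry its name as a label. At the 3' end of Mbp the 3 sites had levels of 0.2, 0.25 and 0.25 at 10 to 12 covering reads. These were the lowest medians along the gene and came from 1 replicate each.

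Levels inside the dense stretch of Mbp spread over the whole permitted range, from 0.2 to 1, around a median of 0.571 (quartiles 0.345 and 0.748). Of its 109 sites, 26 were called in both replicates (23.9%, exact interval 16.2 to 33.0). Before the stretch the median was 0.494 and 2 of 13 sites were called in both (15.4%, interval 1.92 to 45.4), so the intervals overlap. The most deeply read Mbp site lay at 82554677, with 62 covering reads, and kept a cytosine in 27 of 54 reads used, a level of 0.5 (Wilson 95% interval 0.371 to 0.629). The highest Mbp site with at least 20 covering reads, at 82557341, had a mean level of 0.933 ± 0.0948 (SD, n = 2), with 0.866 in the lower replicate and 1 in the higher. Among sites called in both replicates the deepest was at 82500778, ahead of the dense stretch, with 0.494 ± 0.0877 (SD, n = 2) at 49 reads and replicate levels of 0.432 and 0.556. The first site, at 82475383, kept 7 of 10 reads (Wilson interval 0.397 to 0.892), and the last, at 82585483, kept 3 of 12 (0.0889 to 0.532). Wilson intervals here cover counting error only and treat each read as a separate molecule, which was not checked.

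Camk2a (RefSeq gene 12322, chromosome 18, 60925307 to 60988152) showed the opposite layout, with its sites at the 3' end. The last 10% of the span held 128 of 138 sites (92.8%, exact interval 87.1 to 96.5), all of them between 60984423 and 60987731. Of these, 66 lay in one run of sites 1045 nucleotides long and 41 in another of 645 nucleotides that ended 421 nucleotides before the end of the span. The first site of the gene lay 38514 nucleotides into the span, in a group of 7 sites 135 nucleotides wide, with a median level of 0.5 at a median of 12 covering reads and 0 calls in both replicates. Ahead of that group no site was listed. A list of positions with enough reads sets no limit on methylation where reads are few, and the coverage of unlisted positions was not used here.

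Camk2a also had the highest median level of the 5 genes, 0.6 (quartiles 0.435 and 0.818). At 12 of its sites (8.70%) every read used kept a cytosine, against 3.95% of all sites, and 2 of these were called in both replicates. Of the 12, 6 had at least 20 covering reads, among them the site at 60985346, which stood at 1 in both replicates. It had on average 31 covering reads and 14 unconverted reads, so most covering reads did not enter its level. The others of these 6 used 10 to 14 reads each, at 23 to 31 covering reads. The deepest site called in both replicates, at 60986780, had a mean level of 0.859 ± 0.0820 (SD, n = 2) at 35 reads, from 0.801 and 0.917. The site at 60985326, also with 35 covering reads, the most in the gene, kept 7 of 17 reads used (Wilson interval 0.216 to 0.640). Its first site, at 60963821, kept 11 of 11 reads (0.741 to 1) and its last, at 60987731, 9 of 14 (0.388 to 0.837).

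Within Camk2a the level was higher at sites with more covering reads, the reverse of the order over other sites. Its median level was 0.527 over 49 sites with 10 to 14 reads, 0.573 over 51 sites with 15 to 19, 0.756 over 30 sites with 20 to 29, and 0.802 over 8 sites with 30 or more. All sites outside the 5 genes had 0.545, 0.538, 0.527 and 0.469 in the same bands. The share of covering reads that entered the level moved with the band: at Camk2a sites called in 1 replicate its median was 90.9%, 66.7%, 51.2% and 48.6%, against 90.9%, 80.0%, 70.0% and 80.4% elsewhere. The part of this share in the Camk2a order was not tested. How reads were left out of the level is not stated in the labels or the table.

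Tnni2 (RefSeq gene 21953, chromosome 7, 142441816 to 142444410) was the most deeply covered member. Its sites had a median of 27 covering reads, more than in 96.4% of plus-strand genes, and quartiles of 17 and 37.5. All 47 sites lay in the last 1275 nucleotides of the span, from 142443135 to 142444333. With the span divided into 10 equal bins, bin 6 held 13 sites (median level 0.583), bin 7 held 11 (0.389), bin 9 held 9 (0.5) and bin 10 held 14 (0.664). All 4 medians lay inside the quartiles of the whole gene, 0.372 and 0.694.

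The deepest Tnni2 site, at 142444329, had a mean level of only 0.236 ± 0.00707 (SD, n = 2) at 68 covering reads, with 0.231 and 0.241 in the replicates. A neighbour 4 nucleotides on, at 142444333, was the last site of the gene and kept 6 of 26 reads, a level of 0.231 (Wilson interval 0.110 to 0.421). The site at 142443354 kept 11 of 14 reads, 0.786 (0.524 to 0.924), and was the highest with at least 20 covering reads. The first, at 142443135, kept 6 of 10 (0.313 to 0.832). The intervals of the first and the last site overlap.

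Tnnt3 (RefSeq gene 21957, chromosome 7, 142498771 to 142516213) was the most thinly covered. Its 21 sites had a median of 12 covering reads and a maximum of 19, and 0 reached 20. They fell into 3 groups. A group of 5 sites lay within 7 nucleotides from 142510679, with levels of 0.2, 0.3, 0.4, 0.4 and 0.4. A group of 13 sites followed from 142512275 to 142512567, with a median level of 0.5 and a range of 0.2 to 1. The last group had 3 sites, 377 to 394 nucleotides before the end of the span, with levels of 0.5, 0.706 and 0.879. The last of these, at 142515836, was also the deepest called in both replicates, with 0.879 ± 0.0311 (SD, n = 2) at 18 reads. The site with the most covering reads, at 142515819, kept 5 of 10 reads (Wilson interval 0.237 to 0.763), and the first, at 142510679, 4 of 10 (0.168 to 0.687).

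Ttr (RefSeq gene 22139, chromosome 18, 20664209 to 20674326) had 2 groups of sites. From 20670033 to 20670065 there were 3 sites, with levels of 0.545, 0.545 and 0.7 at 12 or 13 covering reads. From 20673717 to 20673807 there were 10 sites within 91 nucleotides, with a median level of 0.393 and a range of 0.231 to 0.75. The highest of these, at 20673794, was covered by 26 reads, the most in the gene, and 9 of the 12 that entered its level stayed unconverted (Wilson interval 0.468 to 0.911), and the position next to it, at 20673795, with the same coverage, kept 6 of 16. The first Ttr site kept 6 of 11 reads (0.280 to 0.787) and the last, at 20673807, 5 of 13 (0.177 to 0.645). At Ttr sites, all called in 1 replicate, a median of 61.9% of covering reads entered the level. Over all listed sites called in 1 replicate it was 82.6%.

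**Figure D2:**
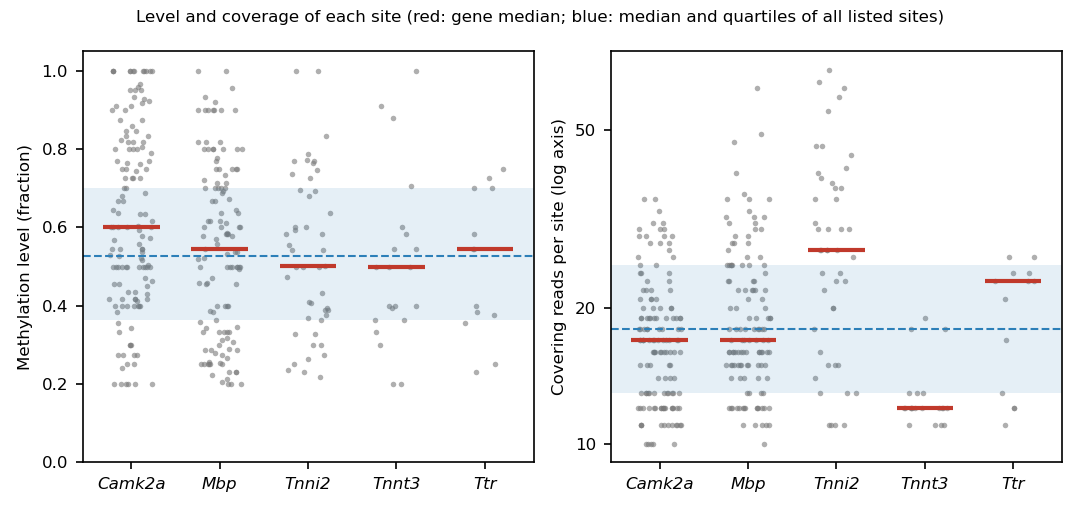
Left, the methylation level (fraction) of each listed site by gene; right, its covering reads on a log axis. Red bars are gene medians, and the blue line and band are the median and quartiles of all 506952 sites. All 5 gene medians of level, from 0.5 to 0.6, lie inside the band, while in coverage Tnni2 lies above it with a median of 27 and Tnnt3 below it with 12.

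In order of median level came Camk2a with 0.6, Mbp and Ttr with 0.545 each, Tnni2 with 0.502 and Tnnt3 with 0.5, and all sites together had 0.526. The 77 sites of these genes called in both replicates had a median SD of 0.0693 between replicates. That SD is the spread of a single site and not of a median, so it does not say whether the medians differ, and their order was not tested. The quartiles of the 5 genes overlap. Among plus-strand genes, 80.1% had a lower median level than Camk2a and 21.6% a lower one than Tnnt3. All listed levels start at 0.2, which narrows the room for medians to differ.

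The genes were also compared by replicate support. Among all listed sites, 14.2% were called in both KO replicates. Camk2a had 39 such sites of 138 (28.3%, exact 95% interval 20.9 to 36.5) and Mbp 28 of 125 (22.4%, 15.4 to 30.7). Tnni2 had 8 of 47 (17.0%, 7.65 to 30.8), Tnnt3 2 of 21 (9.52%, 1.17 to 30.4) and Ttr 0 of 13 (exact interval 0 to 24.7; 3 counts would be 23.1%). The intervals of Camk2a and Mbp lie above the share of the whole table and those of the other three include it, while the intervals of all 5 overlap one another. They count sites as independent, although neighbouring sites share reads, so they are too narrow, and no test was made of genes picked for their sites.

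**Figure D3:**
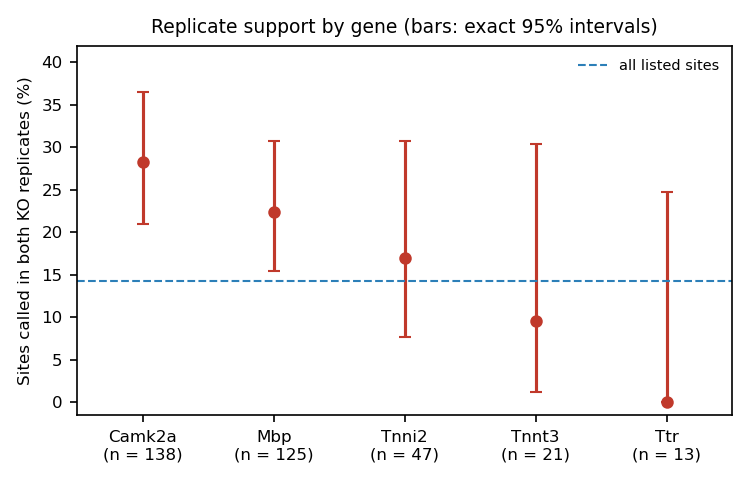
Share of sites (%) called in both KO replicates for each gene, with exact 95% intervals as bars and the number of sites under each name. Camk2a and Mbp lie above the dashed line of all listed sites (14.2%), and the intervals of Tnni2, Tnnt3 and Ttr cross it.

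The shares were also compared at like coverage. In the band of 10 to 14 covering reads Camk2a had 20.4% of 49 sites and Mbp 24.1% of 29 sites called in both replicates, against 8.75% of sites outside the 5 genes. At 15 to 19 reads the shares were 35.3% and 22.9% against 14.2%. At 20 to 29 reads they were 26.7% and 21.9% against 18.1%. At 30 or more reads Camk2a had 3 of 8 sites (37.5%) and Mbp 3 of 16 (18.8%), against 18.8% elsewhere, so Mbp was not above the other sites there. Tnni2 had 1 of 13 (7.69%) at 20 to 29 reads, below the other sites, and 6 of 21 (28.6%) at 30 or more, above them.

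At the sites called in both, the replicates gave similar levels in most cases. The median difference between the higher and the lower replicate was 0.084 in Camk2a, 0.12 in Mbp, 0.125 in Tnni2 and 0.129 in Tnnt3, against 0.1 over all such sites. The largest differences were 0.362 in Camk2a, 0.346 in Mbp, 0.406 in Tnni2 and 0.214 in Tnnt3. The table does not say which replicate was higher. Camk2a sites called in both had a median level of 0.633 and those called in 1 replicate 0.579; in Mbp the values were 0.497 and 0.579, in the other order.

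**Figure D4:**
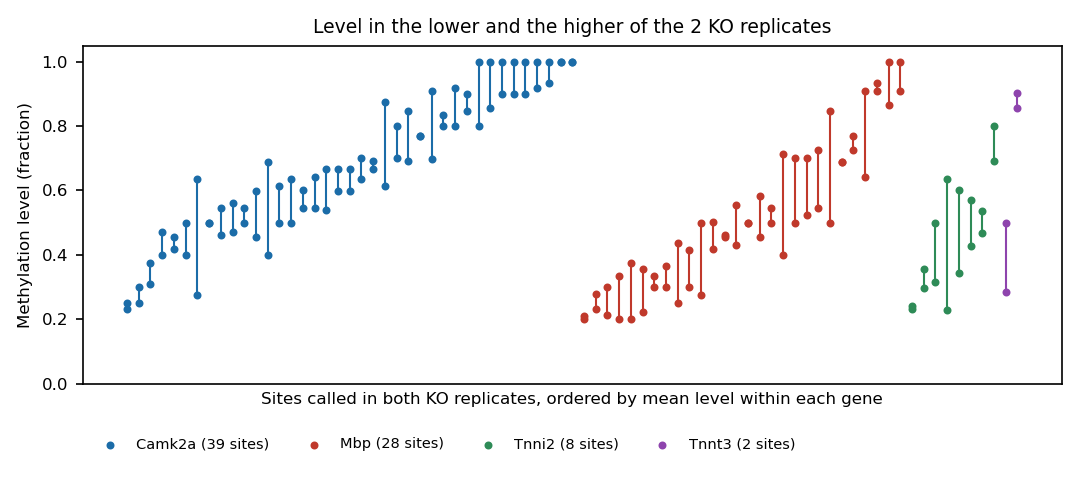
Each vertical line is a site called in both KO replicates, from the level (fraction) of its lower to that of its higher replicate, ordered by mean level within each gene. Camk2a (39 sites) and Mbp (28 sites) span nearly the whole permitted range, 0.231 to 1 and 0.2 to 1, and the widest gap, 0.406, is in Tnni2.

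Another listed site lay within 10 nucleotides for 264 of the 344 (76.7%), against 70.3% of all sites. The share was 89.1% in Camk2a, 90.5% in Tnnt3, 83.0% in Tnni2, 76.9% in Ttr and 58.4% in Mbp, the only one of the 5 below the share of all sites. Sites with a listed site at an adjoining position made up 73 of the 344 (21.2%), against 17.6% of all sites.

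Genes on either side were compared, because their RNA can run into the next span. The 2 genes next to Camk2a, Arsi and Slc6a7, had 0 listed sites. Mbp lay between Galr1 with 0 sites and Zfp236 with 1, on the minus strand, and Ttr between the protein-coding genes Dsg2 with 0 and B4galt6 with 1, also on the minus strand. On chromosome 7 the neighbours did carry sites. The troponin genes there had median levels of 0.502 and 0.5, against 0.526 over all sites. Lsp1, which encodes a leukocyte-specific actin-binding protein, lies between Tnni2 and Tnnt3 and had 87 sites with a median level of 0.506. Its last site lay 15908 nucleotides before the first of Tnnt3, with 0 listed sites in between, and its first lay 16556 nucleotides after the last of Tnni2, again with 0 in between. Ahead of Tnni2, Syt8, a synaptotagmin gene, had 8 sites with a median level of 0.65, the last of them 2842 nucleotides before the first Tnni2 site, with 0 in between. After Tnnt3, Mrpl23, which encodes a mitochondrial ribosomal protein, had 40 sites with a median level of 0.6. RNA that runs on from a neighbour was not tested beyond these counts. A neighbour on the minus strand had little room to be listed, as nearly all listed sites lay on the plus strand. The strand of the neighbours at 0 and the coverage of unlisted positions were not used.

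Most other genes of the same tissues had no listed site, while 34.2% of 21900 protein-coding genes had at least 1. The share given for a list that holds a member gene counts that gene too, although it was chosen for its sites. For the myelin list the share so counted, 33.3%, was close to that of all protein-coding genes. Of 17 fast skeletal muscle genes 3 had sites (17.6%): the 2 troponin genes and Mylpf, a myosin light chain gene, with 17 sites and a median level of 0.4. Of 5 slow and cardiac troponin genes only Tnnc1 had sites, 20 of them at a median level of 0.545. Of 17 neuron and synapse genes 2 had sites (11.8%), Camk2a and Dlg4, which encodes the synaptic scaffold PSD-95 and had 136 sites at a median level of 0.529. Of 12 myelin genes 4 had sites (33.3%): Mbp, Cnp with 58, Pmp22 with 16 and Cldn11 with 3. Troponin genes at 0 included Tnni1, Tnni3, Tnnt1, Tnnt2 and Tnnc2, and myelin genes at 0 included Mag, Mog and Mobp. A gene without a listed site may have had too few reads. It may also have had sites called in WT too, if the list leaves those out. The table shows neither. Of all 506952 listed sites 502191 lay on the plus strand, so a minus-strand gene had little room to be listed. The strand of the genes at 0 was not used, here or for the lists below. In RNA from a whole culture, fewer cells of a type and less RNA per cell cannot be told apart.

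Camk2a was not the lone member of its family. Camk2d, the gene of the delta subunit of the same kinase, had 124 sites with a median level of 0.6, while Camk2b and Camk2g, the genes of the beta and gamma subunits, had 0. In Camk2d 25 sites were called in both replicates (20.2%), against 28.3% in Camk2a, a difference that was not tested.

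For Ttr, 2 of 13 genes of liver and choroid plexus secretion had sites (15.4%), Ttr itself and Apoa2 with 9. Albumin (Alb), Apoa1 and Rbp4 had 0. Of 13 islet genes 7 had sites (53.8%), led by Gcg with 228, Ins2 with 139 and Ins1 with 112, which encode the glucagon precursor and the insulins. Sites of the islet genes were called in both replicates in 63.9% of cases, which came from Gcg, Ins1, Ins2 and Iapp. Ttr had 0 of 13 called in both. Among islet genes with few sites, Sst had 0 of 24 and Ppy 0 of 12, on the minus strand, and Chga 0 of 8. Genes of the other lists with few sites went both ways. Tnnc1 had 0 of 20, Pmp22 0 of 16, S100a8 0 of 13 and Apoa2 0 of 9, while Mylpf had 2 of 17 and Elane 4 of 23. The part of islet RNA in the Ttr sites was not tested. As a check of the labelled cell type, 13 of 16 myeloid genes had sites (81.2%), led by Csf3r with 221, Mpo with 217 and Itgam with 158. Of the 13, Fcgr3 and Lyz2 had only 1 site each, on the minus strand. Ptprc, Ctsg and S100a9 had 0.

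The genes with the most similar values were then found. Likeness was the distance over 4 measures (number of sites, median level, median covering reads and share called in both), among 5271 genes with 10 or more sites. Nearest to Camk2a were Gclc (131 sites, median level 0.583, 28.2% in both) and Slc6a9 (204 sites, 0.6, 27.5%). Nearest to Mbp were Txnrd3 (148 sites, 0.543, 22.3%) and Phtf1 (112 sites, 0.544, 21.4%). Tnni2 was nearest to Dym (53 sites, 0.5, 17.0%) and Strap (48 sites, 0.5, 18.8%), and Tnnt3 to Rubcnl (24 sites, 0.5, 8.33%) and the myosin light chain gene Myl10 (18 sites, 0.493, 11.1%). Ttr was nearest to Cebpzos (10 sites, 0.531) and Lsm10 (12 sites, 0.577), both with 0 sites called in both replicates.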

How the data were processed

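RNA from 4 libraries was bisulfite-converted, and the table analysed lists sites of the 2 KO libraries, on mm10 per the submitters' processing notes; neither labels nor headers name the aligner or site caller. Covering reads and unconverted reads are, per the file headers, deposited averages, named a score here: those of a single library at sites with 1 call, otherwise a mean rounded by the authors. The deposited level is a fraction with its SD; the authors' combined p-values and the count of replicates with a call, 1 or 2, stand beside it, and other columns of samples numbered 0. Reads used were recovered as unconverted reads over level, whole at 100% of sites with 1 call (tolerance 0.0006). The SD was read as a population SD, since mean plus or minus SD then ran from 0.2 to 1 (within rounding), the limits of the level, and was converted to a sample SD. Gene spans came from RefSeq GRCm38.p6, of which mm10 is the same build; 7806 of 7821 labels matched. No exon annotation or sequence was used.

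No test was made, as the members were chosen by their sites and the members and lists were chosen with earlier results of these data known. Intervals are Wilson for reads and Clopper-Pearson for shares (95%). Groups of sites were split at gaps over 300 nucleotides and bands of coverage set after the data were seen. Named were, per gene, the site of highest level among those covered by 20 or more reads, the deepest, the first, the last and the deepest called in both replicates; the 2 most similar genes; neighbours; and up to 3 genes per list with the most sites, with further names and genes at 0 added after their values were seen; some genes of these lists are not reported here. Alternatives were 20 and 50 covering reads, both replicates, a lone gene label, and 20 reads used. Recovery of reads and replicate levels was tested on simulated data. Python 3.11.15, pandas 2.3.3 and scipy 1.17.1 were used. Total reads per library are stated in neither labels nor headers.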

Additional observations from a re-analysis of the deposited data

How the results depend on the processing

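Of 68 values recomputed under alternatives that could change them, 27 stayed close to the reported one (counts and coverage within 1.5 times, shares within their exact interval, median levels within the replicate SD of 0.0693) and 41 moved. Requiring a lone gene label could change none, as 0 sites shared a label. With 20 or more covering reads, sites numbered 38 in Camk2a, 48 in Mbp, 8 in Ttr and 0 in Tnnt3; the median level was 0.756 in Camk2a and 0.3925 in Ttr; and the last 10% of the span held 100% of sites in Camk2a and Ttr and 0% in Mbp. With 50 or more covering reads, Camk2a, Tnnt3 and Ttr had 0 sites, Mbp 1 (62 covering reads, 0% in both replicates, 0% in the last 10%) and Tnni2 5 (median level 0.327, 62 covering reads). Among sites called in both replicates there were 39, 28, 8, 2 and 0 in Camk2a, Mbp, Tnni2, Tnnt3 and Ttr, the median level of Tnnt3 was 0.636, and the last 10% held 97.4% in Camk2a, 0% in Mbp and 50% in Tnnt3. With 20 or more reads used (estimated where both replicates made the call), there were 1, 13, 21, 0 and 0 sites; the median level was 0.762 in Camk2a and 0.345 in Mbp; 0% of Camk2a and 7.69% of Mbp sites were in both replicates; Mbp had 31 covering reads; and the last 10% held 100% in Camk2a, 0% in Mbp and 14.3% in Tnni2. Fewer sites enter each of these, and no other cause was tested. Under these stricter limits a number of sites could not rise, so the count of values that moved was partly set by the limits. No paired analysis was possible because the table holds no WT values and no single-library values, so leaving out a replicate was not possible either. Depth limits Tnnt3 most, at a median of 12 covering reads.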

Other observations

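Ahead of Syt8 and Tnni2 on chromosome 7, 8 further plus-strand sites carried no gene label. They lay between Gm26143, a small nuclear RNA gene, and Syt8. In Tnni2 the last 2 positions listed as deeply covered, 142444329 and 142444333, had 68 and 64 covering reads and levels of 0.236 and 0.231, while sites 15 and 13 nucleotides before the first of them, at 142444314 and 142444316, stood at 0.746 and 0.5 and the site between them, 142444315, at 0.389. All 5 lay within 100 nucleotides of the end of the span.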
